A study of Rattus norvegicus with 9 samples.

Results

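The 9 genes described here are interferon-stimulated genes, namely Isg15, Irf7, Ifit2, Ifit3, Mx1, Mx2, Rsad2, Oasl and Ifitm3. They were taken by symbol, by a rule that uses no measured value but was set with earlier results of these data known, from the 41801 genes of the single-cell count matrices, and all 9 had unique molecular identifiers (UMIs, each marking 1 captured mRNA molecule) in the cells kept. Their RNA was counted in cells from the osteotomy site of the proximal tibia of Sprague-Dawley rats aged 6 to 8 weeks. All rats carried a circular tibial osteotomy of 3 mm and a skin wound of 4 mm on the back of the foot of the same leg. Rats of the TO group received nothing further, and rats of the TOE group also received radial extracorporeal shock wave treatment (rESWT, pressure pulses applied through the skin) over the osteotomy, with sessions on days 2 and 4, and the TOE libraries of day 2 were collected before the session of day 4. The 8 libraries were TO 2d 0h, collected before any rESWT, TO 2d 4h, TO 4d 4h, TO 4d 24h, TOE 2d 4h, TOE 2d 24h, TOE 4d 4h and TOE 4d 24h, where the name gives the day and the hours after the treatment time. Each condition was 1 library, and the series' text gives 9 rats for 9 conditions, so no condition had a replicate. The TO 2d 24h condition was not analysed here.

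Interferon-stimulated genes are the targets of interferons, cytokines that cells release on sensing foreign or misplaced nucleic acid. Type I interferon binds the receptor chains Ifnar1 and Ifnar2 and activates the kinases Jak1 and Tyk2, and a transcription factor complex that holds Irf9 then binds a GAAA-containing response element in the promoters of the target genes. Many of the targets restrict viruses, some feed back on the pathway, and in bone interferon signalling is known to restrain the formation of osteoclasts.

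The promoters are shown because the response element is the sequence by which these genes are known to be induced. RefSeq windows (build GRCr8, 250 bases before to 50 bases after the start of the gene) were found for 6 of the 9 genes, Ifit3, Irf7, Ifitm3, Rsad2, Mx1 and Oasl. They were searched on both strands for GAAA, any 2 bases and GAAA, which reads as TTTC, any 2 bases and TTTC on the other strand. The match is in capitals in the following windows, each written 5′ to 3′ on the strand of the gene.
Ifit3: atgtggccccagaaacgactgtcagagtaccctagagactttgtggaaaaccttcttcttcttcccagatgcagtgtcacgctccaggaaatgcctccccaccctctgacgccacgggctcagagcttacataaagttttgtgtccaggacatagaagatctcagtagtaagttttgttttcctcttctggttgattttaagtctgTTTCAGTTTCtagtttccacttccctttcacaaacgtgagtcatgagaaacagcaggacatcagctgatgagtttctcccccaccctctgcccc
Irf7: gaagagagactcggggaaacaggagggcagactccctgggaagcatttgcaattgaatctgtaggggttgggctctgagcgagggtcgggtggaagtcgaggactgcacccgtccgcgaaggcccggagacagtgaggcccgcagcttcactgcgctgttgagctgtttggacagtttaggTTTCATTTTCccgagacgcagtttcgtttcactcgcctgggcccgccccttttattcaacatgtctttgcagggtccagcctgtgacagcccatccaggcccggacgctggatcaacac
Ifitm3: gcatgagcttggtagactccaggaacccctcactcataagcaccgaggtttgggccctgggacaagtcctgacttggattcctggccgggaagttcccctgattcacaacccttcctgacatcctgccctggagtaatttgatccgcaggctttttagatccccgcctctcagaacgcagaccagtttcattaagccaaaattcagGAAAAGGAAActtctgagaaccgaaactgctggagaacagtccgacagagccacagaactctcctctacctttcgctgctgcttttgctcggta
Rsad2: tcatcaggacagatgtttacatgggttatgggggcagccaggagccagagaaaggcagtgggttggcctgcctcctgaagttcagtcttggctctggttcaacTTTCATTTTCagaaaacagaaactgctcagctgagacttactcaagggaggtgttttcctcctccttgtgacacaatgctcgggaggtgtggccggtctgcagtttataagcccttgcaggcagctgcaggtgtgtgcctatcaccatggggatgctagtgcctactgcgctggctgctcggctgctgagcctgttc
A match was found in 4 of the 6 windows, the 4 shown, and in neither the Mx1 nor the Oasl window. Over all 27457 windows of the same length 1034 held it (3.77%), and over 29 windows of other type I interferon targets 18 did (62.1%). The matches began 44 bases before the start of Ifit3 and Ifitm3, 69 bases before that of Irf7 and 147 bases before that of Rsad2. A match is a description of the letters in the window and not a measured binding site.

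In all, 110426 cells were kept of 116711 barcodes, and the total per library ran from 95954800 UMIs (TOE 4d 24h) to 144146202 UMIs (TOE 2d 4h). Between 2.51% and 2.95% of the barcodes of a library also occurred in another library. Cells were clustered and the clusters were named "-like" from marker lists, and levels below are UMIs of the gene per 1000000 UMIs of the same cells (CPM) with 95% intervals that cover counting error only. Because UMIs were counted from 3' tags, levels are compared between cells and libraries for 1 gene at a time. In CPM of all cells together, a lower level can mean fewer cells of a type or less RNA of the gene per cell, and these cannot be told apart without the class values given beside them. The TOE 4d 24h library stood apart from the rest. It held 34 macrophage-like cells against 161 to 637 elsewhere, none of the haemoglobin-rich erythroid cluster, and 1435 of the 2378 cells of one neutrophil-like cluster. The TOE 2d 24h library was the richest in mesenchymal-like cells, at 3.54% of its cells against 0.370% to 1.45% elsewhere.

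The genes did not share a cell type. Among the named classes, Isg15, Ifit2 and Ifit3 were highest in neutrophil-like cells, Irf7 and Oasl in macrophage-like cells, Mx1 in T/NK-cell-like cells, Rsad2 in erythroid-like cells, and Mx2 and Ifitm3 in endothelial-like cells. Small unnamed clusters, described below, held higher levels of Isg15, Ifit3, Irf7 and Oasl. For Rsad2 the unnamed cluster led by Il23a and Cxcl3, taken over all libraries, lay close to the erythroid-like class. It lay below the haemoglobin-rich cluster of that class (194 to 374 CPM over libraries). These classes were built from the expression of all variable genes, so the levels by class are descriptions without a test.

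**Figure D1:**
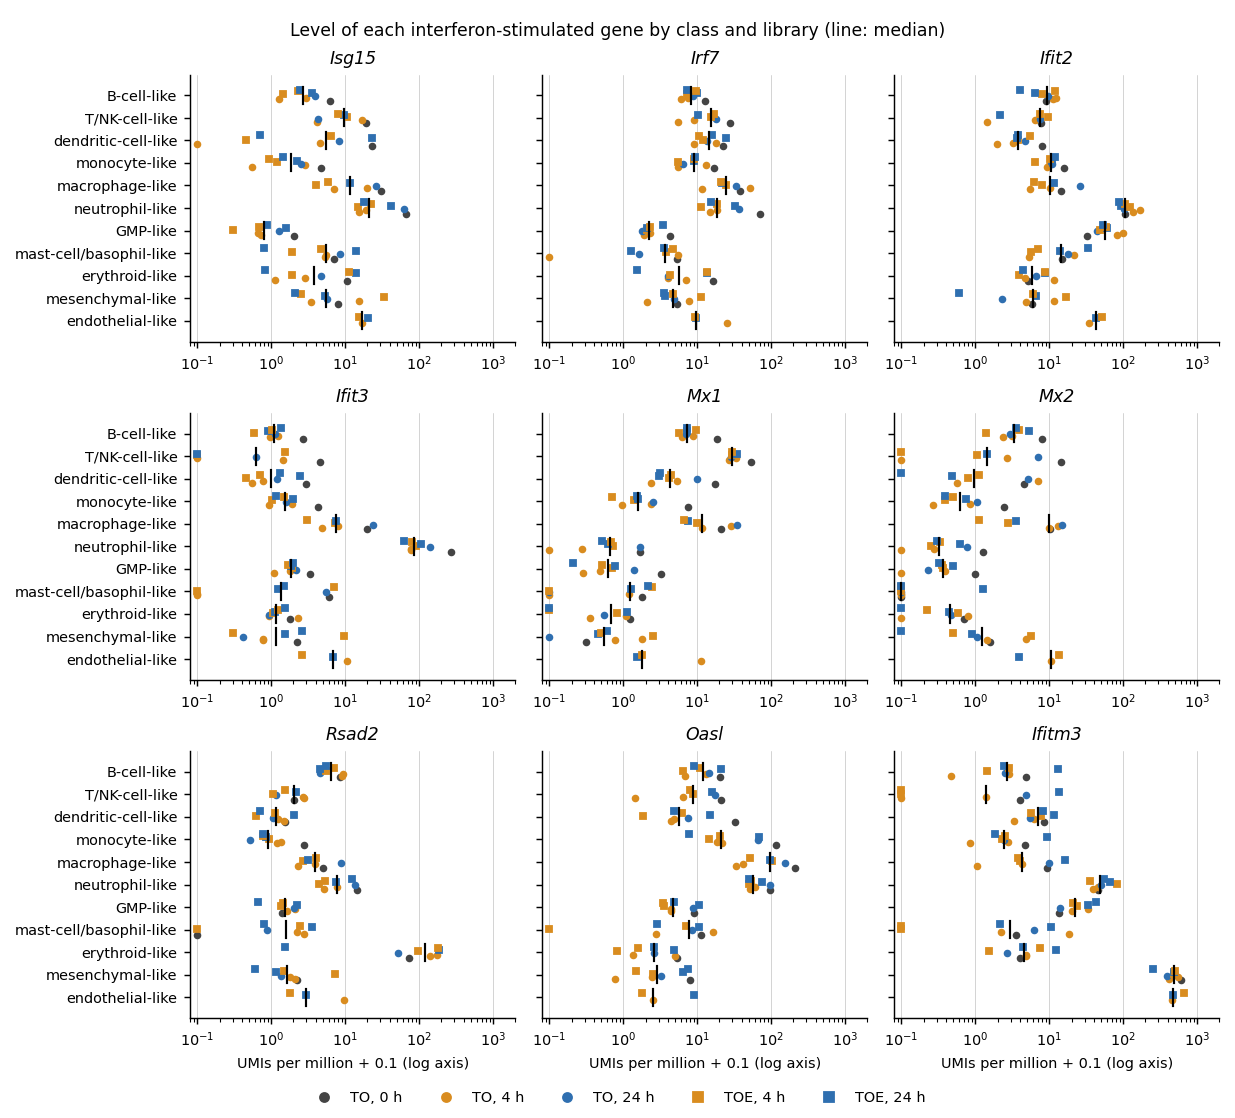
Level of each of the 9 genes by cell class, in CPM plus 0.1 on a log axis. Each point is 1 library with at least 50 cells of the class, circles are TO, squares are TOE, colours give the hour and the line is the median, and the highest class differs between the genes, with Ifit3 apart in neutrophil-like cells (library median of 84.4 CPM), Rsad2 in erythroid-like cells (119 CPM) and Ifitm3 in endothelial-like and mesenchymal-like cells (468 and 487 CPM).

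Irf7, the transcription factor that amplifies the type I interferon response, was expressed broadly among leucocytes. Its level was 29.0 CPM in macrophage-like cells (11.5 to 52.1 CPM over the 7 libraries with at least 50 such cells) and 24.0 CPM in neutrophil-like cells (11.1 to 70.1 CPM over 8 libraries). T/NK-cell-like cells (16.0 CPM) and endothelial-like cells (13.8 CPM) followed, and monocyte-like, B-cell-like and erythroid-like cells lay between 8.07 and 9.02 CPM. The ranges over libraries of the macrophage-like, neutrophil-like and T/NK-cell-like cells overlapped, so their order is not set by these data. Dendritic-cell-like cells, led by both Siglech and Flt3, held 15.8 CPM (653 UMIs in 2051 cells), a mean over unlike cells. At a finer clustering, 557 cells with high Siglech, a marker of plasmacytoid dendritic cells, held Irf7 at 61.4 CPM (55.6 to 67.6, 408 UMIs), while Isg15 (2.41 CPM) and Ifit3 (0.451 CPM) were low in the same cells.

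Isg15, a ubiquitin-like protein that is attached to other proteins and also secreted, was at 29.6 CPM in neutrophil-like cells (15.1 to 67.0 CPM over libraries). Endothelial-like cells (22.2 CPM) and macrophage-like cells (15.4 CPM) came next, and the library ranges of the 3 classes overlapped. B-cell-like cells, the largest class with 45140 cells, held 2.89 CPM, and granulocyte-monocyte progenitor-like cells 0.810 CPM.

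Ifit2 and Ifit3, related tetratricopeptide proteins of which Ifit2 is known for binding RNA, differed in the progenitor-like cells. Ifit2 was at 116 CPM in neutrophil-like cells (88.1 to 170 CPM over libraries) and at 60.5 CPM in granulocyte-monocyte progenitor-like cells (31.9 to 98.3 CPM). Ifit3 was at 100.2 CPM in neutrophil-like cells (62.8 to 270 CPM) and at 1.82 CPM in the progenitor-like cells (1.00 to 3.23 CPM), so that the lowest neutrophil-like library lay above the highest library of every other class with at least 50 cells in a library. Neutrophil-like cells held 68.5% of all Ifit3 UMIs and 40.4% of all Ifit2 UMIs. A UMI of Ifit3 was found in 17.0% of neutrophil-like cells (median of 5166 UMIs per cell) and in 0.456% of B-cell-like cells (median of 3914 UMIs), or in 12.5% and 0.219% after each cell was thinned to 2000 UMIs.

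Within the neutrophil-like cells the same contrast appeared between clusters. The cluster led by Ngp and Lcn2, genes of secondary granules that mark immature neutrophils, held Ifit3 at 0.654 to 5.18 CPM over the 8 libraries and Ifit2 at 41.9 to 128 CPM. The cluster led by Hcar2, Prok2 and G0s2 held Ifit3 at 168 to 510 CPM and Ifit2 at 108 to 262 CPM. Isg15 followed Ifit3, at 1.01 to 6.68 CPM in the first cluster and 35.3 to 111 CPM in the other. Over the 8 libraries the ranges of Ifit3 and Isg15 did not overlap between these clusters, and those of Ifit2 did. The remaining neutrophil-like cluster, led by Nlrp12 and Mgam, held Ifit3 at 68.0 to 410 CPM and Isg15 at 4.17 (1 UMI) to 131 CPM. Its Isg15 range overlapped those of both other clusters. How many of all genes separate the clusters in this way was not counted, and the clusters were built from expression in the same cells.

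Mx1 and Mx2, dynamin-like GTPases that block viruses, were nearly absent from neutrophil-like cells, at 0.600 and 0.335 CPM. Mx1 was at 35.4 CPM in T/NK-cell-like cells (26.9 to 54.0 CPM over 7 libraries), above macrophage-like cells at 14.8 CPM (6.52 to 34.9 CPM) and B-cell-like cells at 8.83 CPM (5.64 to 18.4 CPM). Mx2 stayed low in every class, at 7.40 CPM in endothelial-like cells (50 UMIs in all), 6.64 CPM in macrophage-like cells and 3.70 CPM in B-cell-like cells. The order of Mx2 depended on the weighting, since the mean over libraries put macrophage-like cells first at 8.66 CPM.

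Rsad2 (viperin), an enzyme that makes a chain-terminating nucleotide, had its highest level among the named classes in erythroid-like cells. Erythroid-like cells held 66.2% of its UMIs, at 113 CPM, against 10.7 CPM in endothelial-like and 8.88 CPM in neutrophil-like cells. Within the erythroid-like cells the RNA lay in the cluster led by haemoglobin genes and Alas2, the first enzyme of haem synthesis. That cluster held Rsad2 at 281 CPM in TO 2d 0h, 350 CPM in TO 2d 4h, 374 CPM in TO 4d 4h, 194 CPM in TO 4d 24h, 324 CPM in TOE 2d 4h, 279 CPM in TOE 2d 24h and 348 CPM in TOE 4d 4h. TOE 4d 24h had no cell in it. The earlier erythroid cluster, led by Car1 and Tfr2, held 0.258 to 2.09 CPM in all 8 libraries. The cluster of 2072 cells led by Snx32 and Sync, 1989 of them from TO 2d 4h, held 20.9 CPM (16.7 to 25.9) in that library. A UMI of Rsad2 was found in 52.7% of the haemoglobin-rich cells (median of 6216 UMIs per cell) and in 2.59% of B-cell-like cells (median of 3914 UMIs). Over all erythroid-like cells the share was 27.8% as counted and 23.0% after thinning to 2000 UMIs, against 1.30% of B-cell-like cells after thinning. No other member had its highest class there, and Ifit3 was at 1.33 CPM in erythroid-like cells. Isg15 was at 5.44 CPM in the class, but in the haemoglobin-rich cluster it ran from 2.02 CPM (TO 2d 4h) to 30.4 CPM (TO 2d 0h), with 20.9 CPM in TOE 2d 24h, 20.0 CPM in TOE 4d 4h and 12.4 CPM in TO 4d 24h.

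Oasl, a relative of the oligoadenylate synthetases, was a gene of the mononuclear phagocytes and neutrophils. It was at 99.0 CPM in macrophage-like cells (33.1 to 211 CPM over libraries), 63.5 CPM in neutrophil-like cells (49.4 to 96.0 CPM) and 41.3 CPM in monocyte-like cells (7.71 to 118 CPM). A small unnamed cluster of 942 cells, led by Adgre4, Treml4 and Fcgr3a, held more, at 207 CPM (194 to 221), together with Irf7 at 98.2 CPM (89.2 to 108).

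Ifitm3, a membrane protein that blocks viral entry at the endosome, was the stromal member of the list. It was at 511 CPM in endothelial-like cells (462 to 658 CPM over 3 libraries) and 490 CPM in mesenchymal-like cells (249 to 598 CPM over 8 libraries), ranges that overlapped. Neutrophil-like cells (51.4 CPM) and granulocyte-monocyte progenitor-like cells (25.2 CPM) followed, and mesenchymal-like cells alone held 63.4% of its UMIs.

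The levels also differed by library. In the sum over all cells, 6 of the 9 genes, Isg15, Irf7, Ifit3, Mx1, Mx2 and Oasl, were highest in TO 2d 0h, the library taken on day 2 before the treatment time. Of all 23971 genes with at least 20 UMIs in that sum 9.42% were highest there. Isg15 ran from 2.40 CPM (TOE 2d 4h) up to 15.5 CPM (TO 2d 0h), Ifit3 from 5.60 to 22.0 CPM, Irf7 from 5.88 to 18.7 CPM and Oasl from 9.79 to 46.9 CPM, with the same libraries at the ends. Mx1 (2.33 to 11.8 CPM) and Mx2 (0.642 to 5.18 CPM) had the same top library, 3.62 and 4.16 times the median of the other 7.

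The remaining 3 genes had another order. Ifit2 was lowest in TO 2d 0h at 15.8 CPM and highest in TO 4d 4h at 34.7 CPM. Rsad2 ran from 5.22 CPM (TOE 4d 24h) to 18.7 CPM (TO 2d 4h), which are the libraries with the fewest and the most erythroid-like cells (0.671% and 18.1% of their cells). Most of the erythroid-like cells of TO 2d 4h were not those with the Rsad2 RNA, since 1989 of them, in the cluster led by Snx32 and Sync, held 85 UMIs of it and the 586 haemoglobin-rich cells held 1556. Ifitm3 ran from 13.8 CPM (TO 2d 4h) to 107 CPM (TOE 2d 24h), the latter being the library with the most mesenchymal-like cells. In TOE 2d 24h Ifitm3 was also highest in B-cell-like cells, at 13.2 CPM against 0.375 to 4.73 CPM elsewhere, and the collagen gene Col1a1 in those B-cell-like cells was at 496 CPM against 42.0 to 275 CPM. The 2 genes shared that highest library and the lowest, TO 2d 4h (42.0 CPM of Col1a1 and 0.375 CPM of Ifitm3). TOE 2d 4h came next to the lowest for both (42.4 and 1.34 CPM). Between these libraries the order differed in part. In B-cell-like cells Col1a1 and Ifitm3 were at 275 and 2.41 CPM in TO 4d 24h, and at 60.5 and 2.72 CPM in TO 4d 4h. The part of Col1a1 in the result was not tested.

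Within classes TO 2d 0h was the highest library for 8 of the 9 genes in monocyte-like cells (8.44% of all genes), for 6 in neutrophil-like cells (11.1%), for 5 in B-cell-like cells (9.20%) and for 1 in macrophage-like cells (8.67%). In monocyte-like cells Oasl was at 118 CPM in TO 2d 0h, against 69.5 and 65.6 CPM in TOE 2d 24h and TO 4d 24h, 14.4 to 21.3 CPM in the 4 libraries of 4 h and 7.71 CPM in TOE 4d 24h. The monocyte-like cells of TOE 4d 24h came from another cluster, with 614 in that led by Spatc1 and Mnda and 30 in that led by Cd14 and Htr7, against 110 and 983 in TO 4d 24h and 170 and 862 in TO 2d 0h. The other libraries also differed, since at Leiden resolution 2 a cluster led by Pira2 and Cd14 held 779, 883 and 1079 monocyte-like cells in TO 2d 0h, TO 4d 24h and TOE 2d 24h and 5 to 9 in the 4 h libraries. Another, led by Htr7 and Il1a, held 702 to 1351 at 4 h and 38 to 55 in those 3 libraries. Their part in the level of Oasl was not tested. In B-cell-like cells Mx1 was at 18.4 CPM in TO 2d 0h and at 5.64 to 9.47 CPM in the other 7 libraries. In macrophage-like cells TOE 4d 24h was highest for 5 genes, but that library held 34 such cells and between 16 and 42 UMIs of each of the 5. With 1 library at 0 h, whether these levels belong to the hour or to the library cannot be told apart.

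A small cluster carried a large share of the Isg15 and Ifit3 RNA. It held 384 cells, 307 of them from TO 2d 0h, and was led by Il23a, Cxcl3, Cxcl2, Isg15 and Ifit3, so that chemokine and interferon-stimulated genes were among those that defined it. Its best list was the neutrophil list with 3 of 10 markers raised, while at Leiden resolutions 0.5 and 2 the macrophage list was the best for the clusters that held 89.6% and 92.2% of these cells. In it S100a8, a calcium-binding protein abundant in neutrophils, was at 1804 CPM against 55734 to 81355 CPM in the neutrophil-like clusters. It was therefore left unnamed, a choice made after its genes were seen. Isg15 was at 1117 CPM in it, Ifit3 at 1577 CPM, Irf7 at 309 CPM, Rsad2 at 118 CPM, and Mx1 at 11.2 CPM. These means cover unlike libraries, since Isg15 was at 814 CPM in the cells of TO 2d 0h and 6902 CPM in the 19 of TOE 4d 24h. Mx1 was at 1.29 CPM (1 UMI) in the former and 169 CPM in the latter, where 1 cell held all 10 UMIs.

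In TO 2d 0h the cluster was 2.17% of the cells and held 31.8% of the Isg15 UMIs (630 of 1979) and 34.7% of the Ifit3 UMIs (974 of 2803). In TOE 4d 24h it was 19 of 11924 cells (0.159%) and held 47.2% of the Isg15 UMIs (408 of 864) and 30.3% of the Ifit3 UMIs (486 of 1602). In the other 6 libraries its 1 to 19 cells held at most 2.94% of the Isg15 UMIs and at most 4.88% of the Ifit3 UMIs. Isg15 in TOE 4d 24h was 9.52 CPM with these cells and 5.03 CPM without them, and in TO 2d 0h 15.5 CPM with and 10.6 CPM without. Without them TO 2d 0h was still the highest library for Isg15 and Ifit3.

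**Figure D2:**
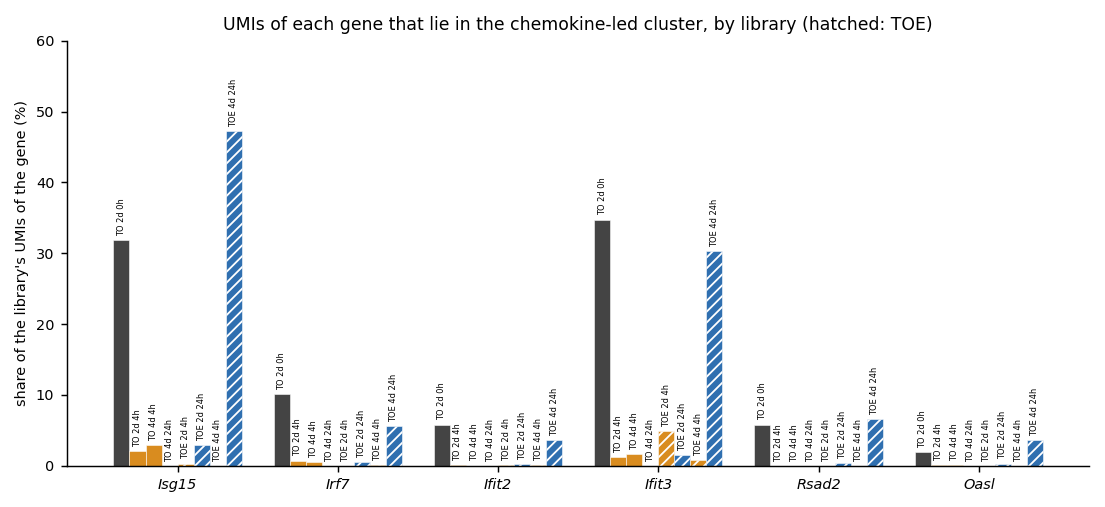
Share of the UMIs of 6 of the genes that lay in the unnamed cluster led by Il23a and Cxcl3, in percent of the library, with 1 bar per library and TOE hatched. TO 2d 0h and TOE 4d 24h reach 31.8% and 47.2% for Isg15 and 34.7% and 30.3% for Ifit3, and no bar of the other 6 libraries passes 4.88%.

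To compare the hours after the treatment time, UMIs were summed per library in all cells and in B-cell-like, neutrophil-like, monocyte-like and macrophage-like cells. Each sum was fitted with edgeR's quasi-likelihood test with terms for treatment, day and hour, and p-values were adjusted by Benjamini-Hochberg over all genes. The spread then came from what these terms left over, with 3 residual degrees of freedom, and p-values measure only the spread between these libraries.

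In neutrophil-like cells 8 of the 9 genes were higher at 24 h than at 4 h, with a median log2 difference of 1.03 against 0.02 over all genes, but none passed the threshold of 0.05. Isg15 was at 62.6 CPM in TO 4d 24h, 41.4 CPM in TOE 2d 24h and 17.9 CPM in TOE 4d 24h, and at 15.5, 19.1, 15.1 and 22.3 CPM in TO 2d 4h, TO 4d 4h, TOE 2d 4h and TOE 4d 4h. The groups overlapped through TOE 4d 24h, the library whose neutrophil-like cells came mostly from another cluster than those of the other 24 h libraries. The overlap depended on leaving out the cluster led by Il23a and Cxcl3. With its cells counted as neutrophil-like, Isg15 was at 62.6, 45.3 and 45.5 CPM at 24 h in the same order. At 4 h it was then at 15.2 to 22.3 CPM, with no overlap. As fitted, without those cells, the log2 difference of Isg15 was 1.32 ± 0.39 (SE, edgeR adjusted p = 0.153).

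Irf7 was at 36.4, 32.2 and 15.3 CPM in the same 3 libraries of 24 h and at 11.1 to 18.4 CPM in the 4 of 4 h, a log2 difference of 1.03 ± 0.35 (edgeR adjusted p = 0.194). Rsad2, at 13.4, 7.51 and 12.4 CPM against 4.31 to 7.68 CPM, had a log2 difference of 1.12 ± 0.22 (edgeR adjusted p = 0.0688). Ifit2 alone went the other way, with 88.1 to 101 CPM at 24 h and 107 to 170 CPM at 4 h. Its groups did not overlap, as was so in that direction for 14.2% of all genes, and its log2 difference was -0.27 ± 0.18 (edgeR adjusted p = 0.513).

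RNA of other cells and the make-up of the classes also differed between the libraries. Col1a1, a collagen gene of mesenchymal cells, was at 255, 403 and 135 CPM in the neutrophil-like cells of the 24 h libraries TO 4d 24h, TOE 2d 24h and TOE 4d 24h and at 70.0 to 147 CPM at 4 h. The cluster led by Hcar2 and Prok2, in which Isg15 and Ifit3 were high, held 1496 of 2047 and 792 of 1226 neutrophil-like cells in TO 4d 24h and TOE 2d 24h, 236 of 2692 in TOE 4d 24h, and 923 of 1544, 856 of 1671, 292 of 902 and 408 of 1037 in TO 2d 4h, TO 4d 4h, TOE 2d 4h and TOE 4d 4h. Within it Isg15 was at 94.3, 60.3 and 74.3 CPM in the 24 h libraries and at 35.3 to 61.9 CPM at 4 h. S100a8 in all neutrophil-like cells was at 77679 to 105127 CPM at 24 h and 44082 to 58229 CPM at 4 h. Their part in the levels of the 9 genes was not tested.

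**Figure D3:**
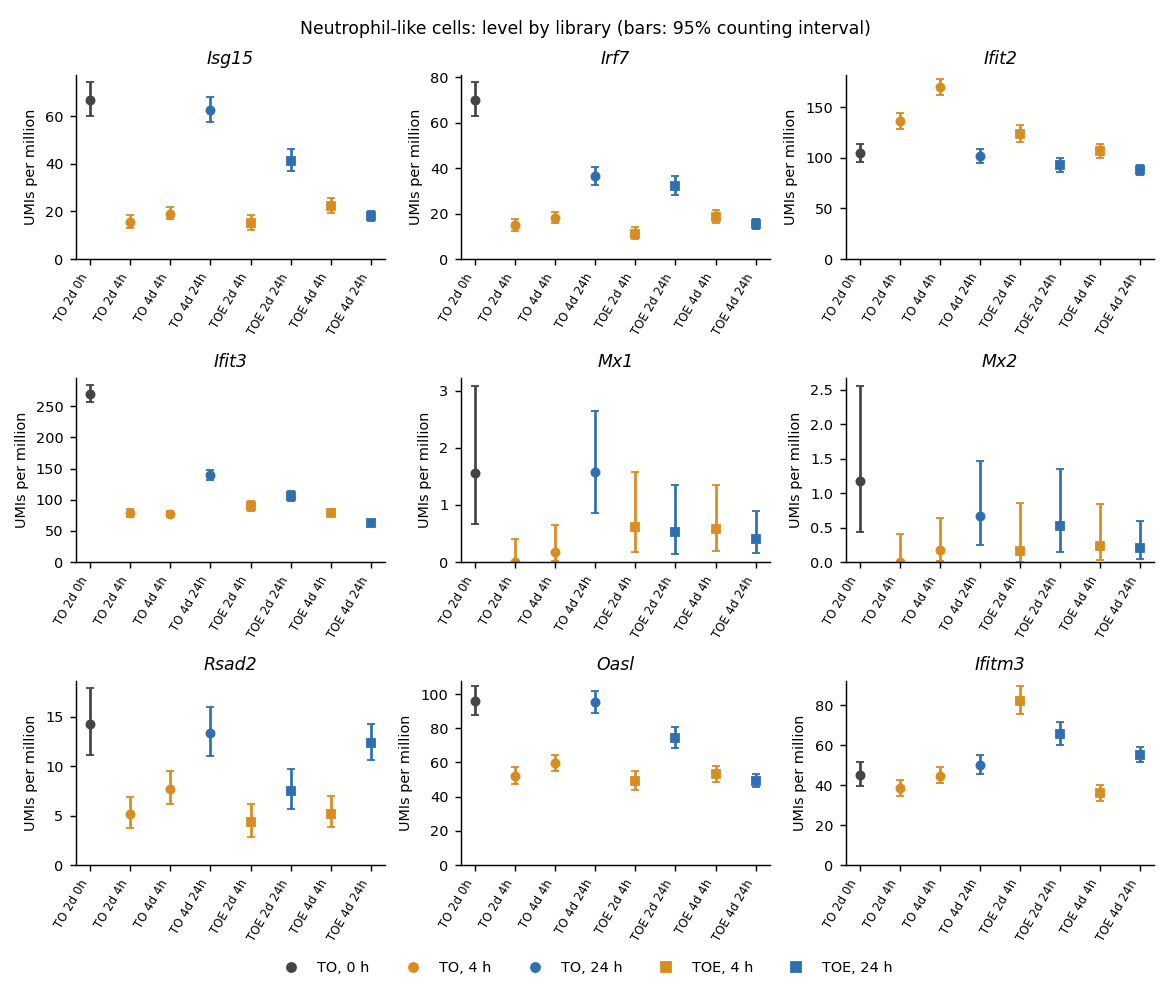
Level of each gene in neutrophil-like cells of the 8 libraries, in CPM on linear axes that start at 0, with 95% counting intervals. Circles are TO and squares are TOE, colours give the hour, and Isg15, Irf7 and Ifit3 are highest in TO 2d 0h, while TOE 4d 24h lies among the 4 h libraries for Isg15 and Irf7 and below them for Ifit3. The cluster led by Il23a and Cxcl3 is left out, and with it TOE 4d 24h was at 45.5 CPM for Isg15 and 95.4 CPM for Ifit3.

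Across all genes, edgeR called 150 of 13885 for the hour in neutrophil-like cells (1.08%), 427 of 18050 in B-cell-like cells (2.37%), 203 in monocyte-like cells (1.22%), 100 in macrophage-like cells (0.715%) and 3 in all cells (0.0132%). None of the 9 genes was called in any of the 5 sums. At an unadjusted p below 0.05 edgeR had 4 of the 9 in all cells (12.7% of all genes), 1 in B-cell-like (24%), 4 in neutrophil-like (17.5%), 0 in monocyte-like (21.4%) and 5 in macrophage-like cells (17.8%). DESeq2 called 1 in all cells (3.91% of all genes), 0 in B-cell-like (11.2%), 2 in neutrophil-like (4.63%), 0 in monocyte-like (8.01%) and 3 in macrophage-like cells (3.42%) after adjustment. The counts in B-cell-like and monocyte-like cells were thus at or below the share over all genes. The count differed without TOE 4d 24h, where edgeR called 5 of the 9 in neutrophil-like cells (Isg15, Irf7, Ifit3, Rsad2 and Oasl, with 12.5% of all genes called). It then called 3 in B-cell-like cells (Isg15, Oasl and Ifitm3, with 20.1% of all genes), 2 in macrophage-like cells (Ifit2 and Ifitm3, with 5.17%), 1 in monocyte-like cells (Oasl, with 12.8%) and 0 in all cells (0.0221%). Isg15 in neutrophil-like cells then had a log2 difference of 1.70 (edgeR adjusted p = 0.00146).

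In macrophage-like cells all 9 genes were higher at 24 h, with a median log2 difference of 1.19 against -0.02 over all genes, and none was called. Ifit3 was at 23.6 CPM in TO 4d 24h and 7.47 CPM in TOE 2d 24h, against 2.96 to 7.80 CPM at 4 h, and at 72.0 CPM (25 UMIs) in TOE 4d 24h. Col1a1 in macrophage-like cells was at 184, 334 and 92.2 CPM in the same order of 24 h libraries and at 42.3 to 121 CPM at 4 h, and its part was not tested. In all cells 7 were higher at 24 h (median log2 difference of 0.78), and in B-cell-like and monocyte-like cells 6 and 7 were (medians of 0.36 and 0.66). The B-cell-like cells lay in different clusters by library. A cluster held 3533 and 4318 of them in TO 4d 24h and TOE 2d 24h but 72 in TOE 4d 24h and 32 to 63 at 4 h, another held 2377 to 3277 at 4 h and 49 to 218 at 24 h, and 3679 of those of TOE 4d 24h lay in a further cluster. The split did not follow the hour alone. At Leiden resolution 0.5 a B-cell-like cluster held 3993, 3650 and 4473 cells in TO 2d 0h, TO 4d 24h and TOE 2d 24h. It held 77 in TOE 4d 24h and 30 to 71 in the 4 h libraries. Col1a1 in B-cell-like cells was at 168 to 496 CPM at 24 h and 42.0 to 121 CPM at 4 h. These parts in the result were not tested. Rsad2 in all cells was lower at 24 h, at 5.22 to 8.08 CPM against 8.56 to 18.7 CPM with no overlap (11.4% of all genes were so ordered), and its log2 difference was -0.90 ± 0.30 (edgeR adjusted p = 0.314). In the other direction the 24 h libraries all lay above those of 4 h for Isg15 in all cells (8.14 to 9.52 CPM against 2.40 to 6.22 CPM, 8.46% of all genes). Without the cluster led by Il23a and Cxcl3 Isg15 was at 5.03 CPM in TOE 4d 24h and 6.04 CPM in TO 4d 4h, so the groups then overlapped. The same order held for Ifit2 in monocyte-like cells (12.5%) and for Ifit2 and Ifitm3 in macrophage-like cells (6.23%). In the latter the 34 cells of TOE 4d 24h held 16 UMIs of Ifit2 and 2 of Ifitm3. The interval of that Ifitm3 level (5.76 CPM, 0.698 to 20.8) covered the highest 4 h level (4.22 CPM).

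The comparison of TOE with TO asked whether rESWT over the osteotomy altered these genes. edgeR called no gene of all those tested in any of the 5 sums (0%), and so none of the 9. At an unadjusted p below 0.05 edgeR had 0 of the 9 in each sum except macrophage-like cells, where it had 1, Mx2 (log2 difference of -2.31 ± 0.54), against 3.18% of all genes. The share of all genes was 1.52% in all cells, 2.84% in B-cell-like, 5.51% in neutrophil-like and 6.55% in monocyte-like cells. DESeq2 called 0 of the 9 in every sum, and of all genes it called 0% in all cells, 0.00554% in B-cell-like, 0.0576% in neutrophil-like, 0.438% in monocyte-like and 0.0715% in macrophage-like cells. The log2 differences were mostly below 0, with 8 of 9 genes lower in TOE in all cells (median of -0.24). It was 7 in neutrophil-like cells (median of -0.38) and 7 in monocyte-like cells (median of -0.29). In B-cell-like and in macrophage-like cells 6 were lower (medians of -0.15 and -0.11). Over all genes the medians lay between -0.00011 and 0.051. The direction was not the same in each TO and TOE library of equal day and hour. In neutrophil-like cells 4 of the 9 were higher in TOE at 2d 4h and 5 at 4d 4h, but only 1 was at 4d 24h. In the same order the counts were 6, 2 and 3 in monocyte-like cells. They were 6, 2 and 6 in macrophage-like cells and 3, 4 and 4 in B-cell-like cells. Isg15 had a log2 difference of -0.41 ± 0.41 in neutrophil-like cells, and Irf7 of -0.02 ± 0.32 in all cells.

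Each matched pair is 1 library against 1 library, so the ratios that follow have counting intervals and no test. In all cells at 2d 4h, 5 of the 9 genes had a TOE/TO ratio with an interval below 1 and none above. Among them were Rsad2 at 0.458 (0.426 to 0.492) and Ifit2 at 0.601 (0.569 to 0.635). By direction alone, 2 of the 9 had a ratio above 1, against 55.7% of all genes with at least 20 UMIs. Intervals clear of 1 were not counted over all genes, so the interval counts here and below have no background to be judged by. In the haemoglobin-rich cluster, which held most of the Rsad2 RNA, the level was 350 CPM in TO 2d 4h (332 to 367, 586 cells) and 324 CPM in TOE 2d 4h (302 to 348, 396 cells). Neutrophil-like cells, the highest class of Ifit2, were 10.5% of the TO 2d 4h cells and 5.56% of the TOE 2d 4h cells. The Ifit2 ratio was 0.907 (0.829 to 0.993) in neutrophil-like, 0.714 in B-cell-like, 0.680 in monocyte-like and 1.46 in macrophage-like cells. At 4d 4h 7 genes lay below 1 with their intervals and none above, among them Mx2 at 0.551 (0.448 to 0.677) and Isg15 at 0.672 (0.600 to 0.754). By direction alone, 1 of the 9 had a ratio above 1 in this pair, against 40.5% of all genes. By class the Isg15 ratio there was 1.17 (0.957 to 1.43) in neutrophil-like, 0.784 in B-cell-like, 0.304 in monocyte-like and 0.295 in macrophage-like cells. That of Mx2 was 1.24 in B-cell-like, 1.30 in neutrophil-like (2 UMIs in each library), 0.526 in monocyte-like and 0.0807 in macrophage-like cells. At 4d 24h 5 lay below 1 and 4 above with their intervals, among them Oasl at 0.493 (0.461 to 0.526) and Ifit3 at 1.43 (1.33 to 1.54). The 4 of 9 with a ratio above 1 stood against 57.3% of all genes.

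At 4d 24h the direction of Isg15 differed with and without the small cluster described above. Its TOE/TO ratio in all cells was 1.12 (1.02 to 1.22) with that cluster and 0.589 (0.526 to 0.659) without it. For Ifit3 the ratio went from 1.43 to 0.997 (0.921 to 1.08), and for Oasl from 0.493 to 0.475 (0.444 to 0.508).

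**Figure D4:**
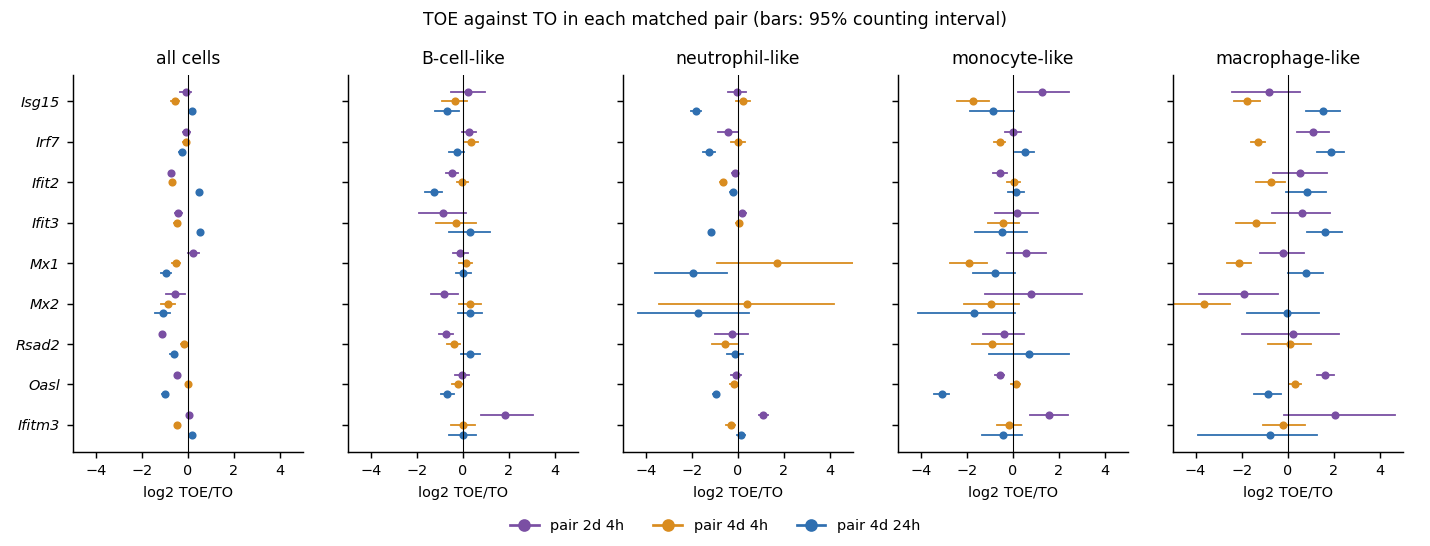
Difference between TOE and TO of each gene in the 3 matched pairs, as the log2 ratio of CPM, in all cells and in 4 classes. Bars are 95% counting intervals cut at the edge of the axis. Pairs with no UMI in TO or none in TOE are not drawn, as for Rsad2 in macrophage-like cells at 4d 24h (17 UMIs in TO, 0 in TOE). In all cells 5 genes at the 2d 4h pair and 7 at the 4d 4h pair lie below 0 with their intervals, and Isg15 and Ifit3 lie above 0 in the 4d 24h pair.

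In neutrophil-like cells the 4d 24h pair differed most for Isg15, Irf7, Ifit3 and Oasl. Ifit2 and Rsad2 differed more at 4d 4h (0.630 and 0.678) than at 4d 24h (0.868 and 0.925), and Ifitm3 more at 2d 4h (2.14 against 1.10). At 4d 24h the first 3 genes were as follows. Isg15 was at 62.6 CPM in TO and 17.9 CPM in TOE, a ratio of 0.287 (0.247 to 0.332), Irf7 had a ratio of 0.420 (0.353 to 0.499), and Ifit3 of 0.450 (0.413 to 0.491). These ratios leave out the cluster led by Il23a and Cxcl3, of which 19 TOE 4d 24h cells held 408 Isg15 UMIs. With that cluster counted as neutrophil-like they were 0.727 (0.648 to 0.814), 0.496 (0.421 to 0.585) and 0.684 (0.634 to 0.739). The 2 libraries drew their neutrophil-like cells from different clusters. In TO 4d 24h 1496 of 2047 neutrophil-like cells were in the cluster led by Hcar2 and Prok2, and in TOE 4d 24h 236 of 2692 were, with 1435 in a cluster led by Nlrp12, Mgam and Fpr1 and 1021 in the Ngp-rich cluster. Within the Hcar2 and Prok2 cluster the ratio of Isg15 was 0.788 (0.607 to 1.01), that of Ifit3 was 1.27 (1.11 to 1.45) and that of Ifit2 was 2.04 (1.76 to 2.36). Within the Nlrp12 and Mgam cluster, with 110 cells in TO and 1435 in TOE, Isg15 had a ratio of 0.309 (0.215 to 0.456) and Ifit3 of 0.503 (0.399 to 0.640). The direction of Ifit3 thus differed between the clusters of 1 class.

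At 4 h the same split gave another picture of Isg15. In neutrophil-like cells as a whole Isg15 had ratios with intervals across 1 at 2d 4h (0.972, 0.743 to 1.27) and at 4d 4h. In the Hcar2 and Prok2 cluster its ratio at 2d 4h was 1.35 (0.991 to 1.82), and the ratio at 4d 4h was 1.59 (1.25 to 2.01). The ratio of Ifit3 was 1.42 (1.24 to 1.61) in the former pair and 1.18 (1.06 to 1.33) in the latter. Both ratios were above 1 in both pairs, and only the interval of Isg15 at 2d 4h included 1, while Ifitm3 had ratios of 2.17 (1.37 to 3.39) and 0.525 (0.315 to 0.845).

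In the 10 neutrophil-like cells with most Isg15 lay 25.0% to 68.4% of the Isg15 UMIs of a library, and a UMI of it was found in 3.24% to 11.2% of these cells. A level of Isg15 in this class therefore rested on few cells, and more so than one of Ifit3, for which the same share was 14.6% to 36.3%.

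Day 4 was compared with day 2 in the same fits. edgeR called no gene in any of the 5 sums (0%), and DESeq2 called 0 of the 9 in every sum, with 0.0044% of all genes called in all cells, 0.0166% in B-cell-like, 0.0072% in neutrophil-like, 0.036% in monocyte-like and 0% in macrophage-like cells. At an unadjusted p below 0.05 edgeR had 0 of the 9 in each sum except macrophage-like cells, where it had 3 (1.75% of all genes), Irf7, Isg15 and Mx1, with log2 differences of 1.39 ± 0.48, 1.30 ± 0.50 and 1.14 ± 0.50. Their highest levels (121, 74.9 and 60.5 CPM) were those of the 34 macrophage-like cells of TOE 4d 24h, from 42, 26 and 21 UMIs. In the other sums 0.765% (all cells), 1.4% (B-cell-like), 1.54% (neutrophil-like) and 1.6% (monocyte-like) of all genes passed. In the other sums the largest difference was that of Mx1 in neutrophil-like cells, 0.71 ± 1.11 at 0 to 14 UMIs per library. By direction, 8 of the 9 were higher on day 4 in macrophage-like cells and 9 in B-cell-like cells (median log2 differences of 0.80 and 0.079). It was 6 in all cells, 6 in monocyte-like and 5 in neutrophil-like cells (medians of 0.28, 0.18 and 0.066). Over all genes the medians lay between -0.024 and 0.0047.

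Cells that held UMIs of several of the genes at once were rare. At least 3 of the 9 were seen in 3119 of 110426 cells (2.82%), from 0.844% (0.709% to 0.997%) of the TOE 2d 4h cells to 4.39% (4.06% to 4.75%) of the TOE 2d 24h cells and 6.05% (5.66% to 6.45%) of the TO 2d 0h cells. After thinning to 2000 UMIs per cell, which left out 13934 shallower cells, the shares were 1.99% in TO 2d 0h, 1.32% in TO 4d 24h, 0.807% in TOE 2d 24h and 0.256% in TOE 2d 4h, so TO 2d 0h stayed highest and TOE 2d 24h did not stay next to it. Neutrophil-like cells made up 39.7% of such cells. Of the neutrophil-like cells 10.3% held at least 3 (4.69% thinned), against 0.463% of B-cell-like cells (0.0997% thinned), with medians of 5166 and 3914 UMIs per cell. As counted the share was higher in endothelial-like cells (30.1%, or 3.40% thinned), mesenchymal-like cells (13.7%, or 0.469% thinned) and macrophage-like cells (12.2%, or 1.42% thinned), whose cells were deeper, with medians of 14308.5, 31906 and 11384 UMIs. In the unnamed cluster led by Il23a and Cxcl3 it was 33.1%.

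**Figure D5:**
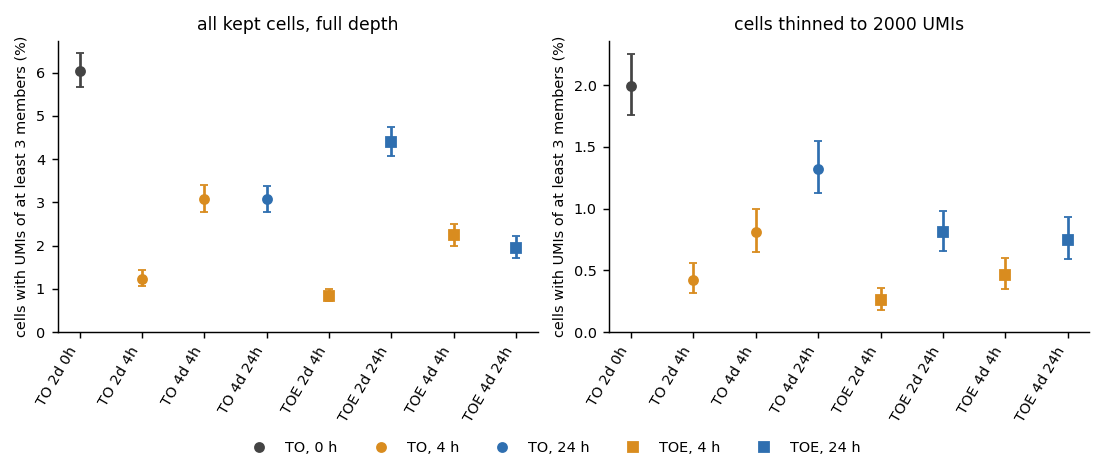
Share of cells with UMIs of at least 3 of the 9 genes in each of the 8 libraries, in percent, as counted on the left and with each cell thinned to 2000 UMIs on the right, where the axis is shorter. Bars are 95% Clopper-Pearson intervals, and TO 2d 0h is highest in both (6.05% and 1.99%).

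The rest of the pathway was measured with lists of its parts. Of 11 interferon ligand genes in the files 3 had no UMI in any cell, Ifnb1 had 30 UMIs, Ifnk 61 and Ifng 88 over all libraries. Ifng was at 8.63 CPM in T/NK-cell-like cells, its highest class. Of the 11, 4 had enough UMIs to be tested in all cells, and none was called.

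Of 10 genes for receptors and the signalling just below them none was highest in TO 2d 0h and none was called for treatment, day or hour in any sum. The 3 named for their UMI counts, Ifnar1, Ifngr1 and Jak1, are the chains and kinase named above for type I interferon and their interferon gamma counterpart. Of 12 sensors and adaptors, such as Ifih1, Irf3 and Irf5, 3 were highest in TO 2d 0h and none was called.

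Of 36 other type I interferon targets, all in the files, 13 were highest in TO 2d 0h in all cells (9.42% of all genes). Others, among them Ifitm1, Ifitm2, Sp100, Oasl2, Parp9 and Xaf1, were highest in TOE 4d 24h, so the list had no single top library. These are levels of all cells, and TOE 4d 24h held 22.6% neutrophil-like cells against 5.56% to 14.9% elsewhere. That class was the highest for Ifitm1, Ifitm2, Oasl2 and Xaf1, but not for Sp100 (B-cell-like) and Parp9 (endothelial-like). The part of the cell make-up was not tested. For the hour 27 of the 36 were higher at 24 h in all cells (median log2 difference of 0.15) and 32 of 35 tested in macrophage-like cells (median of 0.59). Of 34 tested in B-cell-like cells 1 passed, a share near the 2.37% of all genes, namely Oas1i, an oligoadenylate synthetase (log2 difference of 1.72 ± 0.30, edgeR adjusted p = 0.0419). In monocyte-like cells 1 of 35 tested passed (1.22% of all genes), Dtx3l, a ubiquitin ligase that works with Parp9, which rose (1.29 ± 0.17, edgeR adjusted p = 0.0332). Ifitm1, Ifitm2 and Slfn2, named for their UMI counts, were not called.

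Among 18 interferon gamma targets 2 were called for the hour, 1 of 15 tested in B-cell-like cells (2.37% of all genes) and 1 of 16 tested in macrophage-like cells (0.715%). Cxcl10, a chemokine that attracts T cells, rose in macrophage-like cells at 24 h (1.79 ± 0.31, edgeR adjusted p = 0.0382), and Cd74, the invariant chain of MHC class II, fell in B-cell-like cells (-1.57 ± 0.18, edgeR adjusted p = 0.0190). The B-cell-like class left out an unnamed cluster of 3692 cells led by Fcmr, Ms4a1, RT1-Da and Cd74, with 6 of 7 B-cell markers raised. It held 1216 and 1266 cells in TO 4d 24h and TOE 2d 24h, 54 in TOE 4d 24h and 13 to 27 in the 4 h libraries, so the value of Cd74 is that of the class without these cells. Psmb8 and Nos2, named for their UMI counts, were not called. None of the 9 negative regulators, of which Irf2, Irf2bp2 and Ptpn6 were named for their UMI counts, was called, and no listed gene was called for treatment or day.

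Over 81 sums of 1 library and 1 class with at least 50 cells, the 9 genes varied together only loosely once each was centred within its class. The 36 pairs had a median Pearson r of 0.36, 7 pairs were above 0.5 and none was below 0, and the sums shared libraries and depth. Mx1 with Mx2 had the highest r (0.63), and Ifitm3 and Rsad2 had the lowest medians against the others (0.17 and 0.22). The 10 genes most like the mean of the 9 by the same measure were RT1-S3 (0.69), Gbp5 (0.61), Srsf5, Angptl4, Nsun4, Mzb1, Bin3, Lox, Dusp8 and Map1lc3b (0.56).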

How the data were processed

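Single-cell RNA-seq libraries (10x Genomics, 3' chemistry) of tibial osteotomy tissue were analysed, 1 library for each of 8 conditions. The deposited matrices hold raw UMI counts per gene and barcode, which per the labels' processing notes came from Cell Ranger 9.0.0, with Seurat and R 4.0.3 also named and the builds mRatBN7.2 and GRCh38 listed. No column was left unmapped (0). Barcodes under 200 genes or over 20% mitochondrial UMIs were dropped, and those with a doublet score above 0.25 (scanpy 1.11.5) were removed. Cells were clustered on 2000 variable genes, 30 principal components and 15 neighbours (Leiden resolution 1). Clusters were named "-like" from marker lists where at least 3 markers were raised. A cluster still stayed unnamed where the raised markers were a minority of the list, or where genes of another class led it. The same held for shallow clusters with no marker among the leading genes. Unnamed clusters held 23782 cells (21.5%, or 13.3% to 28.0% by library), which are in no class sum. Classes are rebuilt here and may differ from those of the study.

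UMI counts were summed per library over all cells and over 4 classes and fitted with edgeR 4.0.16 (R 4.3.3), with terms for treatment, day and hour, and called at a Benjamini-Hochberg adjusted p of 0.05 over all genes. The alternatives were DESeq2 1.42.0, other scaling, no filter on low counts, leaving out each library, another cell filter, doublets kept, other clusterings, and the matched pairs as a block. With 1 library per condition, p-values measure only the spread between these libraries, which the animal, the preparation and the condition share. Intervals are at the 95% level (Clopper-Pearson for shares, exact for counts) and cover counting error only. All 9 genes were named in every comparison, and of 6 pathway lists the genes past the threshold and the 3 with the most UMIs over all cells, a choice of names and not a comparison of levels between genes. For likeness the 10 genes with the highest Pearson r with the mean of the 9 were named (log2(CPM + 1), mean of at least 10 CPM). The 9 genes and the lists were chosen with earlier results of these data known. The statistical scripts were tested on simulated data.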

Additional observations from a re-analysis of the deposited data

Results flagged for a closer look

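In 13 cases the TOE/TO ratio of a gene lay above 1 in one matched pair and below 1 in another, with counting intervals on either side. Each ratio is 1 library against 1 library, and the difference between pairs was not tested. In all cells the higher ratio was that of 4d 24h for Isg15 (1.12 against 0.672 at 4d 4h), Ifit2 (1.39 against 0.601 at 2d 4h), Ifit3 (1.43 against 0.717 at 4d 4h) and Ifitm3 (1.12 against 0.718 at 4d 4h). For Isg15 and Ifit3 the ratio at 4d 24h was 0.589 and 0.997 without the cluster led by Il23a and Cxcl3.

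In neutrophil-like cells the higher ratio was that of 2d 4h for Ifit3 (1.15 against 0.450 at 4d 24h) and Ifitm3 (2.14 against 0.803 at 4d 4h). In monocyte-like cells Isg15 had 2.40 (2d 4h) against 0.304 (4d 4h), and Irf7 had 1.44 (4d 24h) against 0.671 (4d 4h). The monocyte-like cells of TOE 4d 24h lay mostly in another cluster (614 and 30 cells) than those of TO 4d 24h (110 and 983).

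In macrophage-like cells Isg15 (2.92), Irf7 (3.63), Ifit3 (3.05) and Mx1 (1.73) had their higher ratio at 4d 24h, where TOE held 34 such cells, and their lower one at 4d 4h (0.295, 0.404, 0.380 and 0.231). Oasl in these cells had a ratio of 3.10 in the 2d 4h pair against 0.554 in the 4d 24h pair.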

How the results depend on the processing

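For treatment and day none of the 9 genes was called under any alternative, leave-one-library-out fits included (0 to 0 in each of the 5 sums), except in macrophage-like cells with no filter on low counts, where 1 was called for treatment (Mx2) and 2 for day (Isg15 and Irf7). With the 3 matched pairs alone and the pair as a replicate block, 0 were called for treatment in each sum. The pairs share a day and an hour, not an animal. For the hour, where edgeR called 0, DESeq2 called 1 in all cells, 2 in neutrophil-like and 3 in macrophage-like cells. No filter on low counts gave 5 in macrophage-like cells, Leiden resolution 2 gave 1 there, and Leiden resolution 0.5 gave 1 in neutrophil-like cells. Counting the cluster led by Il23a and Cxcl3 as neutrophil-like, an alternative chosen after seeing the data, also gave 1 there (Isg15, log2 difference of 1.57, edgeR adjusted p = 0.0302). Leaving out 1 library at a time gave 0 to 3 in B-cell-like, 0 to 5 in neutrophil-like, 0 to 1 in monocyte-like, 0 to 2 in macrophage-like and 0 to 0 in all cells, each upper value without TOE 4d 24h where above 0, and log2 differences of Isg15 in neutrophil-like cells from 0.82 to 1.83. The cause was not tested.

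The number of genes with a ratio above 1 in TOE went from 2 to 1 at 2d 4h and from 4 to 2 at 4d 24h in all cells with TMM factors. With Leiden resolution 0.5 it went from 4 to 1 in B-cell-like and from 3 to 1 in monocyte-like cells at 4d 24h, and with resolution 2 from 2 to 1 in macrophage-like cells at 4d 4h. Mx2 had macrophage-like cells as its highest class at resolution 2 (8.78 CPM) and by the mean over libraries.

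The share of cells with at least 3 of the genes depended on its definition. In the order at least 2 genes, at least 4 genes, without Ifitm3 and thinned, TO 2d 0h had 15.2%, 2.44%, 5.16% and 1.99%, and TO 2d 4h had 5.50%, 0.311%, 0.907% and 0.424% of cells. Likewise TO 4d 4h had 10.8%, 1.01%, 2.30% and 0.809%, and TO 4d 24h had 9.84%, 1.25%, 2.68% and 1.32%. Of the TOE libraries TOE 2d 4h had 4.25%, 0.247%, 0.604% and 0.256%, and TOE 2d 24h had 13.7%, 1.36%, 2.75% and 0.807%. Lastly TOE 4d 4h had 8.85%, 0.660%, 1.73% and 0.458%, and TOE 4d 24h had 7.56%, 0.780%, 1.59% and 0.746%. TO 2d 0h was highest under each.

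Mx1 and Mx2 in neutrophil-like cells rested on at most 14 UMIs per library, and the macrophage-like sum of TOE 4d 24h on 34 cells, so differences there were not detectable unless large.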
